A study of Mus musculus with 18 samples.

Results

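Described here are 42 mouse genes of the antioxidant and glutathione systems. They were listed by symbol for the known functions of their products, with no measured value in the rule. They are the transcription factor gene Nfe2l2 (NRF2) and its inhibitor Keap1, 3 enzymes that act on quinones or heme (Nqo1, Hmox1 and Hmox2), 4 genes of glutathione synthesis and reduction, 6 of the thioredoxin system, 7 peroxiredoxin and sulfiredoxin genes, 3 superoxide dismutases, 5 glutathione peroxidases, 7 glutathione transferases and 5 enzymes of NADPH supply and the pentose phosphate pathway. Each of the 42 symbols was found once among the 51912 genes of the count table, and all 42 were among the 24495 genes tested, those that reached 10 read pairs in the 18 libraries together.

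Reactive oxygen species are taken apart in steps: superoxide dismutases turn superoxide into hydrogen peroxide, which peroxiredoxins and glutathione peroxidases reduce with electrons from thioredoxin and glutathione, and both of these are recharged with NADPH. KEAP1 holds NRF2 for degradation until oxidants or electrophiles modify it, and NRF2 then raises transcription of genes for glutathione synthesis, thioredoxin recycling and NADPH supply. Astrocytes are known as the brain cells with the strongest NRF2 response and as a source of glutathione precursors for neurons.

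The cultures came from cortices of newborn (postnatal day 0) mice, pooled with equal numbers of males and females. They were hemizygous for Tg(Aldh1l1-EGFP/Rpl10a)JD130Htz, from carriers of a B6;FVB stock crossed with C57BL/6J, and the transgene drives a tagged ribosomal protein from the Aldh1l1 promoter. The cells grew for 14 days and 6 more after replating, spent 24 h without serum, and then had 24 h of 50 mM ethanol or of control medium, again without serum. Control and ethanol dishes stood in sealed chambers with an open dish of water or ethanol, so chamber and treatment cannot be told apart. The 18 libraries are 6 control and 6 ethanol libraries of RNA pulled down with the tagged ribosomes (IP), and 3 control and 3 ethanol libraries of the cleared lysate before pulldown (input) from the dishes that also gave IP replicates 4 to 6. The replicates are dishes, and the number of separate cultures behind them is not given. Spread and p-values are thus between dishes and not between animals. The libraries hold 74239854 to 132810705 read pairs counted on genes, with a median of 84119135. Levels are in CPM, read pair counts scaled to a common library size over the 18 libraries; IP values are the lowest, median and highest of 6 libraries, and input values are replicates 4, 5 and 6 in that order. A gene is called when its p adjusted over the 24495 genes is under 0.05, and fold changes are on the log2 scale with their standard error. That error is the fold change over the square root of the test's F statistic. The test pools the spread over genes, so the error is not that of the gene's own replicates alone. With 3 libraries a group in input, a smaller adjusted p there than in IP does not show stronger evidence.

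The astrocyte label was checked on 9 marker genes, whose summed level averaged 1778 CPM in IP control, 1892 in IP ethanol, 1132 in input control and 1169 in input ethanol. Aldh1l1 was the most abundant of them in IP control and Slc1a3 in the other groups, and none averaged under 1 CPM. Between the fractions 8 of the 9 were called higher in IP, and S100b was called lower (-0.49, adjusted p 1.35e-08). The 9 microglial markers summed to 13.8, 15.4, 76.2 and 80.6 CPM in the same order of groups, with C1qb most abundant in IP control and Csf1r in the other groups, and 8 of 9 were lower in IP. The 5 fibroblast markers, led by Col1a2 in IP and Col1a1 in input, summed to 108, 111, 218 and 219 CPM. For oligodendrocyte lineage (8 markers, led by Olig1) the sums were 280.0, 261, 175 and 163.2 CPM. Those for neurons (9 markers, led by Map2) were 117, 121, 82.0 and 86.5 CPM. Those for ependymal cells (4 markers, led by Foxj1) were 447, 465, 377 and 372 CPM. Nearly all of the ependymal sum was Foxj1, at a mean of 433 CPM in IP control. Olig1 and Map2 likewise gave most of their sums. The 7 endothelial and mural markers summed to 1692, 1171, 1332 and 934 CPM, most of it Acta2, while the endothelial marker Cldn5 was at 0 in all libraries. Acta2 fell with ethanol from a mean of 1589 to 1069 CPM in IP and from 1186 to 789.6 in input. It was the 1 of 6 tested markers of this list called in each fraction. The mural marker Pdgfrb was not called, with means of 94.5 and 92.6 CPM in IP control and ethanol and 137 and 135 in input. Of the astrocyte markers 4 of 9 (Slc1a3, Slc1a2, Aqp4 and Sox9) were called higher with ethanol in IP. In input the same 4 were higher and 3 (Aldh1l1, Gfap and Aldoc) lower. Aldh1l1, whose promoter drives the tag, changed by -0.13 in input (adjusted p 9.38e-07). It was not called in IP (-0.06, adjusted p 0.0934). Of the microglial markers 1 of 9, Csf1r, was called higher in each. In the oligodendrocyte lineage Olig1 was lower and Pdgfra and Cspg4 higher in both fractions, with Mbp higher in input. Of the neuronal markers Map2 and Slc17a7 were higher in input, and of the ependymal ones Rsph1 was lower in both and Foxj1 higher in IP. No fibroblast marker was called. The part of these marker changes in the results for the members was not tested. In bulk samples such as these, fewer cells of a type and less RNA per cell cannot be told apart.

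All 42 members were well covered, with 508 to 199799 counts per gene and library. Their libraries within a group lay close together, with a median coefficient of variation of 2.77% over members and groups. Compared per kilobase of the longest annotated transcript, the level in IP control was highest for Gstm1, a cytosolic glutathione transferase, at 1220.1 ± 46.8 CPM per kb (SD, n = 6). Gpx4, which reduces lipid peroxides, followed at 809.5 ± 30.6 CPM per kb, and the peroxiredoxin gene Prdx6 at 521 ± 5.16. Next came Gpx1 at 329 ± 7.998 and Hmox1 at 321 ± 18.1 CPM per kb, a pair that did not differ beyond its spread. At the low end stood Nqo1 at 4.497 ± 0.124 and Txnrd2 at 5.82 ± 0.34 CPM per kb, then Glrx at 7.54 ± 0.346 and Glrx2 at 7.89 ± 0.299, which again lay within their spread of each other. The gene for the regulator Nfe2l2 stood at 144.8 CPM per kb and that for Keap1 at 21.6.

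The first question was which members change with ethanol in each fraction. In IP, 17 of 42 members were called (40.5%), against 21.4% of all genes tested and 36.8% of the 13453 genes averaging 1 CPM or more, a share close to that of the members. Of these members 7 were higher with ethanol, where 11.9% of all genes were called higher, and 10 were lower, where 9.48% were. In input again 17 of 42 were called, against 15% of all genes and 26.4% of those averaging 1 CPM or more. Here 12 were higher (7.21% of all genes) and 5 lower (7.78% of all genes). Control and ethanol were fully separate for 10 members in IP (9.96% of all genes) and 24 in input (27.1% of all genes), where chance separates 10% of genes at 3 against 3 libraries. The median fold change of the 42 members was 0.02 in IP and 0.03 in input, beside 0.01 in IP and near 0 in input over all genes tested. These medians are small and rest on single libraries: that of IP was 0.01 without IP control replicate 5 or 6 or IP ethanol replicate 2, 3 or 6, and that of input 0.02 without input control replicate 4 or 6 or input ethanol replicate 6. Over the other alternatives they were 0.01 to 0.03 in IP and 0.03 to 0.04 in input.

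The changes were small, with a median absolute log2 fold change of 0.13 among the called members in IP and 0.11 in input. Both fractions share dishes 4 to 6, so their values are given side by side and are not independent. Called higher in both were 7 members (Srxn1, Gclc, Mgst1, Gsta4, Gclm, Hmox1 and G6pdx), and called lower in both were 5 (Prdx5, Txn2, Prdx3, Gpx1 and Txn1). Another 5 were called lower in IP alone (Glrx2, Txnrd2, Gpx4, Gstp1 and Prdx2), and 5 higher in input alone (Sod1, Prdx1, Me1, Sod2 and Nfe2l2). No share of all genes is given beside these counts, so whether the members exceed it cannot be told from them. A call in 1 fraction alone does not show a difference between the fractions. In the edgeR test of that difference over the 18 libraries no member and none of the 24495 genes (0%) was called, with 3 members and 1459 genes at an unadjusted p under 0.05. DESeq2 called 2 genes and no member, with 2 members at an unadjusted p under 0.05. The smallest adjusted p among the members was 0.675 for Prdx1, whose fold change in IP minus that in input was -0.11 ± 0.0359. When the model of the 12 libraries with both fractions had a term for each dish, 102 genes (0.416%) and no member were called. With the trend of counts with GC content and transcript length removed as well, 53 genes (0.216%) were called, among them 1 member, Hmox1 (0.11, adjusted p 0.00331).

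**Figure D1:**
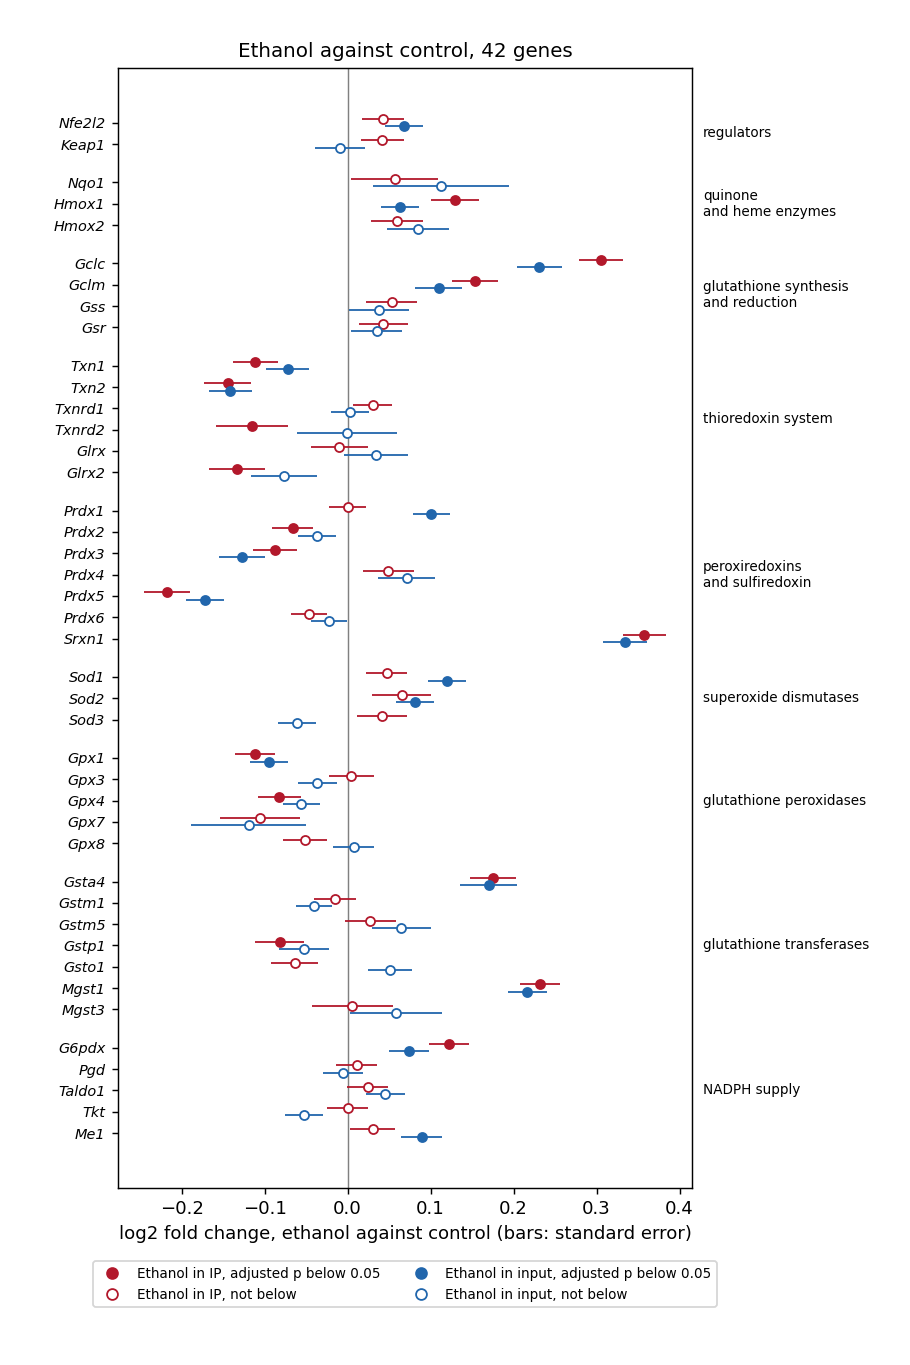
Log2 fold change of ethanol against control (x axis, bars are standard errors) for the 42 genes grouped by role, in IP (red, 12 libraries) and input (blue, 6 libraries), with filled points for an adjusted p under 0.05. Srxn1 lies farthest to the right in both fractions, at 0.36 and 0.33, and Prdx5 farthest to the left, at -0.22 and -0.17.

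Among the regulators, Nfe2l2 encodes the transcription factor itself. Its IP level was 340.1, 361 and 371 CPM in control and 345, 367 and 394 in ethanol, with overlapping groups and no call (fold change 0.04 ± 0.0256, adjusted p 0.271). With replicate number as a block and the trend of counts with GC content and transcript length removed, it was called higher in IP (0.06, adjusted p 0.00502). In input it was 316, 324 and 319 CPM in control and 339, 331 and 338 in ethanol, a fold change of 0.07 ± 0.0228 (adjusted p 0.0236). All 3 ethanol inputs lay above all 3 controls, but the call ended without input control replicate 4 or 6 (adjusted p 0.135 and 0.0947) and without input ethanol replicate 4 or 6 (adjusted p 0.0585 and 0.114). Keap1, whose product marks NRF2 for degradation, stood in IP at 76.7, 78.2 and 80.6 CPM in control and 77.6, 79.5 and 84.7 in ethanol (fold change 0.04 ± 0.0262, adjusted p 0.293). Its inputs were 62.7, 66.4 and 65.5 CPM in control and 64.9, 64.6 and 64.3 in ethanol (fold change -0.01 ± 0.0299, adjusted p 0.908). Its groups overlapped in both fractions.

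Hmox1, which encodes the inducible heme oxygenase, was the only quinone or heme enzyme of the list called with all libraries and the main settings. In IP it was at 474, 493.5 and 549 CPM in control and 527, 547 and 570.1 in ethanol (fold change 0.13 ± 0.0289, adjusted p 0.000956), the groups overlapping by the highest control library. Its inputs were 442, 450.2 and 442 CPM in control and 453, 468 and 477 in ethanol. They did not overlap, and the fold change was 0.06 ± 0.0225 (adjusted p 0.0356). The input call ended without input control replicates 4, 5 or 6 (adjusted p 0.134, 0.0574 and 0.160), without input ethanol replicates 5 or 6 (0.0896 and 0.344), and with edgeR's own filter on low counts (0.0518). Nqo1, the NAD(P)H quinone reductase often used as an NRF2 readout, was called in neither fraction, with fold changes of 0.06 in IP and 0.11 in input. Nor was Hmox2, the constitutive heme oxygenase, at 0.06 and 0.09. When the strands were counted separately, 12.8% of the pairs for Hmox2 lay on the other strand. With the annotated strand alone Hmox2 was called higher in IP (0.09, adjusted p 0.0171) and also among inputs (0.10, adjusted p 0.0117).

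In glutathione synthesis, the RNA for both subunits of the first and rate-limiting enzyme, glutamate cysteine ligase, rose. For the catalytic subunit Gclc, IP levels were 71.5, 72.9 and 75.7 CPM in control and 85.3, 91.0 and 92.4 in ethanol, and input levels were 85.7, 83.2 and 80.2 in control and 98.8, 97.2 and 97.4 in ethanol. Groups did not overlap in either fraction. Its fold change was 0.31 ± 0.0264 in IP (adjusted p 3.58e-14), a rise of 23.6%, against 0.23 ± 0.0269 in input (adjusted p 1.67e-15). The modifier subunit Gclm went from 66.7, 67.8 and 71.3 CPM to 71.0, 75.5 and 80.2 in IP, where the lowest ethanol library lay under the highest control, and from 73.5, 74.1 and 74.6 to 80.7, 79.7 and 80.1 in input, without overlap. Fold changes for Gclm were 0.15 ± 0.0280 in IP (adjusted p 1.90e-05) against 0.11 ± 0.0280 in input (adjusted p 0.00129). Gss, glutathione synthetase, and Gsr, which reduces oxidized glutathione, were not called, with fold changes of 0.04 to 0.05 over both genes and fractions.

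No gene of the thioredoxin system was called higher in either fraction; 4 of 6 were lower in IP (9.48% of all genes) and 2 of 6 in input (7.78% of all genes). With the trend of counts with GC content and transcript length removed, Txn1 was called in neither fraction (adjusted p 0.274 in IP, 0.336 in input). Txn2 encodes mitochondrial thioredoxin. Its IP libraries were at 86.9, 87.9 and 96.0 CPM in control and 75.2, 81.6 and 85.3 in ethanol, and its inputs at 106, 108 and 108 in control and 97.7, 96.2 and 98.4 in ethanol. Every ethanol library lay below every control library of its fraction, with fold changes of -0.14 ± 0.0288 in IP (adjusted p 0.000102) against -0.14 ± 0.0261 in input (adjusted p 2.09e-06). The cytosolic thioredoxin gene Txn1 was at 95.5, 102 and 103 CPM in IP control and 86.4, 92.4 and 97.7 in IP ethanol (fold change -0.11 ± 0.0271, adjusted p 0.00127), with overlap. Inputs of Txn1 were 109.7, 106 and 110.4 CPM in control and 103, 104 and 104 in ethanol, without overlap (fold change -0.07 ± 0.0258, adjusted p 0.0370). That input call ended when any of input control replicates 4 and 6 (adjusted p 0.129 and 0.187) or input ethanol replicates 4, 5 and 6 (0.106, 0.0680 and 0.0598) was left out, and with libraries scaled to total counts (0.0813).

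Glrx2, a mitochondrial glutaredoxin, stood in IP at 29.1, 31.3 and 31.8 CPM in control and 26.7, 27.7 and 29.6 in ethanol, overlapping, with a fold change of -0.13 ± 0.0336 (adjusted p 0.00193). Its inputs were 31.9, 32.8 and 32.4 CPM in control and 29.9, 31.9 and 30.4 in ethanol, also overlapping, and were not called (fold change -0.08 ± 0.0401, adjusted p 0.221). Txnrd2, the mitochondrial thioredoxin reductase, had IP levels of 15.0, 17.0 and 17.7 CPM in control and 14.2, 15.3 and 17.2 in ethanol, overlapping widely (fold change -0.12 ± 0.0433, adjusted p 0.0477). Its call was marginal: it ended without IP control replicate 1, 2, 3 or 6 (adjusted p 0.0628, 0.107, 0.0755 and 0.0798) and without IP ethanol replicate 1, 4, 5 or 6 (0.0692, 0.0663, 0.128 and 0.0785). When the strands were counted separately, 41.3% of the pairs for Txnrd2 lay on the other strand. With the annotated strand alone its fold change in IP was -0.11 (adjusted p 0.0446). The Txnrd2 inputs, 11.9, 12.9 and 12.8 CPM in control and 12.7, 12.4 and 12.6 in ethanol, overlapped and were not called (adjusted p 1). Txnrd1, the cytosolic reductase and a known NRF2 target, was not called, at 0.03 in IP, nor was the cytosolic glutaredoxin gene Glrx, at -0.01.

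Srxn1, which encodes the sulfiredoxin that restores overoxidized peroxiredoxins, had the largest rise of the 42 in both fractions. In IP its libraries were at 83.2, 86.1 and 87.2 CPM in control and 105, 108 and 114 in ethanol, and in input at 83.3, 88.4 and 86.1 in control and 108, 108 and 110.0 in ethanol. All ethanol libraries lay above all controls, with fold changes of 0.36 ± 0.0256 in IP (adjusted p 2.44e-17), a rise of 28.1%, against 0.33 ± 0.0264 in input (adjusted p 1.48e-33). The peroxiredoxins, whose overoxidized forms are its substrates in part, did not rise with it as a family: in IP 3 of 6 were lower (9.48% of all genes) and none higher, and in input 2 were lower (7.78% of all genes) and 1 higher. With the trend of counts with GC content and transcript length removed, IP gave 1 lower, Prdx5, and 1 higher, Prdx4, as the calls of Prdx2 (-0.03, adjusted p 0.386) and Prdx3 (-0.03, adjusted p 0.411) ended. Prdx5, found in mitochondria, peroxisomes and cytosol, had the largest fall of the 42. It went from 397, 427 and 430.5 CPM to 329, 357 and 376 in IP and from 351, 352 and 353 to 315, 311 and 314 in input. Groups did not overlap, and the fold changes were -0.22 ± 0.0273 (adjusted p 4.16e-08) and -0.17 ± 0.0228 (adjusted p 6.25e-12), the IP level having fallen by 14.0%.

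The mitochondrial peroxiredoxin gene Prdx3 stood at 77.1, 78.1 and 83.8 CPM in IP control and 72.1, 74.6 and 76.7 in IP ethanol, and its inputs at 81.6, 80.4 and 79.5 in control and 74.2, 74.4 and 73.1 in ethanol. Again no ethanol library reached a control of its fraction (fold changes -0.09 ± 0.0267, adjusted p 0.0117, and -0.13 ± 0.0280, adjusted p 0.000122). The IP call of Prdx3 ended with the GC and length trend removed and also in replicates 4 to 6 alone (-0.07, adjusted p 0.192). Prdx1, a cytosolic form and known NRF2 target, was level in IP, at 458, 468 and 484 CPM in control and 453, 465 and 479 in ethanol, and its inputs were 580.5, 575 and 574 in control and 635, 598 and 626 in ethanol. Only the inputs stood apart, with a fold change of 0.10 ± 0.0222 (adjusted p 0.000115) against one near 0 in IP. Prdx2, another cytosolic form, was lower in IP at -0.07 ± 0.0249 (adjusted p 0.0477). That call ended without IP control replicate 1, 2 or 3 (adjusted p 0.0545, 0.116 and 0.0694) and without IP ethanol replicate 1, 4 or 5 (0.0798, 0.0972 and 0.170). Prdx4, of the secretory pathway, was not called, at 0.05 in IP and 0.07 in input, except higher in both with the GC and length trend removed (0.13, adjusted p 0.000185, and 0.10, adjusted p 0.0168). Prdx6, the abundant form that uses glutathione, was not called in IP either (-0.05 ± 0.0218, adjusted p 0.128), although all its ethanol libraries lay below the controls. It was called lower there without IP ethanol replicate 3 (adjusted p 0.0401), in DESeq2 (0.0158) and with edgeR's own filter (0.0372).

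**Figure D2:**
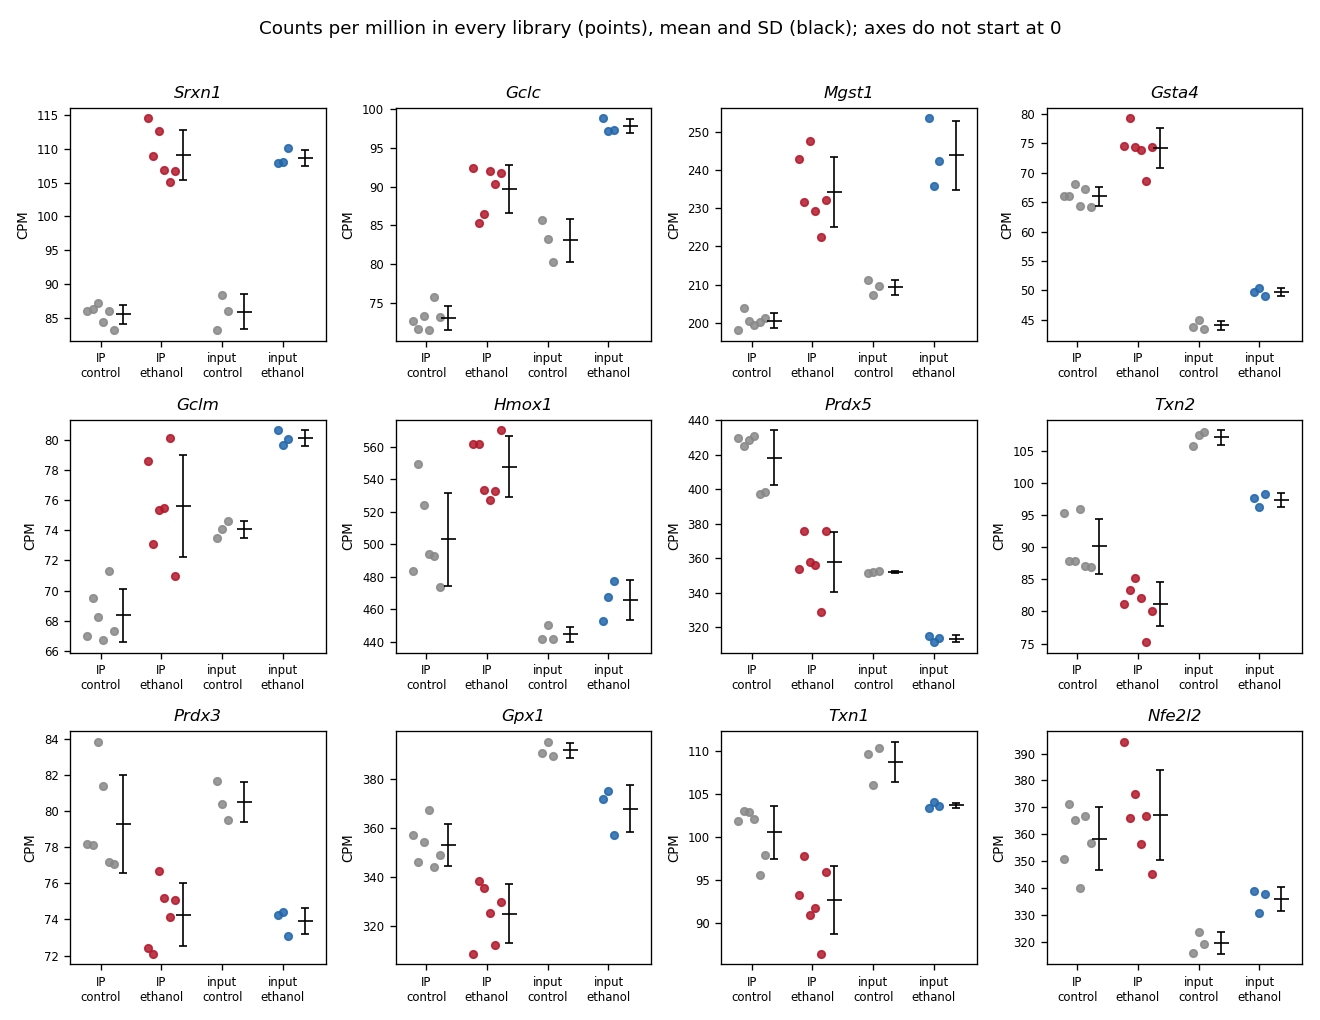
CPM (y axes, not starting at 0) of 12 genes in every library (points) by group, with mean and SD in black; 6 libraries in each IP group and 3 in each input group. The ethanol libraries of Srxn1, Gclc, Mgst1 and Gsta4 all lie above the controls of their fraction, and those of Prdx5, Txn2, Prdx3 and Gpx1 all lie below.

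Of the superoxide dismutases none was called in IP. Sod1, the cytosolic enzyme, was there at 236, 250.1 and 254 CPM in control and 239, 254 and 264 in ethanol, overlapping (0.05 ± 0.0246, adjusted p 0.183). Its inputs were 274, 277 and 273 CPM in control and 295, 304 and 298 in ethanol, without overlap, and higher by 0.12 ± 0.0229 (adjusted p 5.51e-06). The mitochondrial enzyme gene Sod2 was called higher in input (0.08 ± 0.0233, adjusted p 0.00535) although its groups overlapped, and the call ended without input ethanol replicate 4 or 6 (adjusted p 0.128 and 0.221), in DESeq2 (0.0740) and with edgeR's own filter (0.202). In IP it was called only with replicate number as a block (0.07, adjusted p 0.0204), in replicates 4 to 6 alone (0.11, adjusted p 0.00387) or without IP ethanol replicate 5 (0.09, adjusted p 0.0135). The secreted Sod3 was called in neither fraction. It was called lower in input without input ethanol replicate 4 (-0.08, adjusted p 0.00925), with replicate number as a block (adjusted p 0.0370) and with the annotated strand alone (0.0447).

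Of the glutathione peroxidases 2 of 5 were called lower in IP (9.48% of all genes) and 1 of 5 in input (7.78% of all genes), and none higher in either. Gpx1, the main cytosolic and mitochondrial form, was in IP at 344, 352 and 367 CPM in control and 309, 328 and 338 in ethanol, and in input at 391, 395 and 389 in control and 372, 375 and 357 in ethanol. Its groups did not overlap in either fraction, with fold changes of -0.11 ± 0.0242 (adjusted p 0.000287) and -0.09 ± 0.0227 (adjusted p 0.000493). Gpx4 was lower in IP (-0.08 ± 0.0257, adjusted p 0.0155) and not called in input (-0.06), where it was called in DESeq2 (adjusted p 0.0201) and without input ethanol replicate 5 (0.0462). Gpx3, Gpx7 and Gpx8, whose products are secreted or lie in the endoplasmic reticulum, were not called in either fraction, with fold changes from -0.12 to 0.01. In IP, Gpx7 was called lower without IP ethanol replicate 2 (-0.15, adjusted p 0.0215). In replicates 4 to 6 alone, both Gpx7 (-0.21, adjusted p 0.0162) and Gpx8 (-0.11, adjusted p 0.00939) were called lower in IP.

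Of the 7 glutathione transferases 2 were called higher and 1 lower in IP (11.9% and 9.48% of all genes), and 2 higher and none lower in input (7.21% and 7.78%). Mgst1, a microsomal transferase and peroxidase, had IP levels of 198, 200.3 and 204 CPM in control and 222, 232 and 248 in ethanol, and inputs of 211, 207 and 209.6 in control and 254, 236 and 242 in ethanol. Gsta4, which conjugates the lipid peroxidation product hydroxynonenal, had IP levels of 64.1, 66.0 and 68.1 CPM in control and 68.6, 74.4 and 79.2 in ethanol, and inputs of 43.7, 45.0 and 43.5 in control and 49.8, 50.4 and 49.0 in ethanol. For both genes every ethanol library lay above every control of its fraction. Mgst1 rose by 0.23 ± 0.0241 in IP (adjusted p 1.93e-11) against 0.22 ± 0.0231 in input (adjusted p 1.66e-18), and Gsta4 by 0.18 ± 0.0279 (adjusted p 1.58e-06) and 0.17 ± 0.0341 (adjusted p 1.70e-05). Gstp1, a cytosolic transferase of the pi class, was called lower in IP alone (-0.08 ± 0.0294, adjusted p 0.0374). That call ended without IP control replicate 1, 2 or 4 (adjusted p 0.0779, 0.0619 and 0.0811) and without IP ethanol replicate 4 or 5 (0.0702 and 0.157), and with the GC and length trend removed (-0.02, adjusted p 0.723). The most abundant member, Gstm1, was not called (-0.01 in IP, -0.04 in input), nor were Gstm5, Gsto1 and Mgst3. Gsto1 was, however, called lower in IP by DESeq2 (-0.07, adjusted p 0.0186), with edgeR's own filter (-0.07, adjusted p 0.0304), and without IP ethanol replicate 3 or 5 (adjusted p 0.0445 and 0.0450). Gstm5 was called higher in input without input ethanol replicate 5 (0.11, adjusted p 0.0444). With the GC and length trend removed Gstm5 was called higher in both fractions (0.09, adjusted p 0.00607, and 0.10, adjusted p 0.0227) and Gsto1 higher in input (0.09, adjusted p 0.00637).

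In NADPH supply, G6pdx, glucose-6-phosphate dehydrogenase at the entry of the pentose phosphate pathway, was higher in IP (0.12 ± 0.0243, adjusted p 8.08e-05) and likewise in the inputs (0.07 ± 0.0243, adjusted p 0.0203). Its input call ended without input control replicate 5 or 6 (adjusted p 0.0676 and 0.135) or input ethanol replicate 6 (0.205). Me1, cytosolic malic enzyme, was at 99.9, 102 and 104 CPM in IP control and 98.3, 103 and 112 in IP ethanol, overlapping, and not called (0.03, adjusted p 0.502). Its inputs of 117, 121 and 124 CPM in control and 129, 129 and 128 in ethanol did not overlap (0.09 ± 0.0249, adjusted p 0.00388), and the call ended without input control replicate 4 (adjusted p 0.0921). Later enzymes of the pathway, Pgd, Taldo1 and Tkt, were called in neither fraction, with fold changes from -0.05 to 0.05, except Taldo1, higher in both with the GC and length trend removed (0.07, adjusted p 0.00686, and 0.08, adjusted p 0.00594).

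Sorted by place in the cell rather than by reaction, 5 members act mainly in mitochondria. Of these Txn2, Txnrd2, Glrx2 and Prdx3 were lower in IP (9.48% of all genes) and Sod2 was not called. The Txnrd2 call was marginal, and that of Prdx3 ended with the GC and length trend removed (adjusted p 0.411) and in replicates 4 to 6 alone (0.192). In input Txn2 and Prdx3 were lower (7.78% of all genes) and Sod2 higher. The median fold change of the 5 was -0.12 in IP and -0.08 in input. Of the 5 members of the secretory pathway or the outside of the cell (Prdx4, Sod3, Gpx3, Gpx7 and Gpx8), none was called in either fraction with all libraries and the main settings, with medians near 0 in IP and of -0.04 in input. Under other settings Sod3, Gpx7 and Gpx8 were called lower in 1 fraction each, and Prdx4 higher in both with the GC and length trend removed.

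The members called in each direction were also set beside their base composition and length, without a test. In IP the transcripts of the 7 higher members had a median GC content of 49.2% and those of the 10 lower ones 54.3%, beside 49.7% over the genes averaging 1 CPM or more. The ranges overlapped, at 42.1% to 53.3% and 43.6% to 60.2%, and the median transcript lengths were 2652 and 1545 bases. When the trend of counts with GC content and transcript length was removed from each library, 4 of the 10 IP calls lower ended: Txn1 (-0.04, adjusted p 0.274), Prdx3 (-0.03, adjusted p 0.411), Prdx2 (-0.03, adjusted p 0.386) and Gstp1 (-0.02, adjusted p 0.723). Prdx5, Txn2, Glrx2, Txnrd2, Gpx1 and Gpx4 stayed called lower and the 7 higher members stayed higher. Newly called higher in IP were Prdx4 (0.13, adjusted p 0.000185), Hmox2 (0.10, adjusted p 0.00551), Gstm5 (0.09, adjusted p 0.00607) and Taldo1 (0.07, adjusted p 0.00686). In input the same step ended the calls of Sod2 (0.05, adjusted p 0.101) and Txn1 (-0.04, adjusted p 0.336). It added Prdx4, Hmox2, Gstm5, Taldo1 and Gsto1 as higher, at fold changes of 0.08 to 0.11. GC content and length were removed together, so their parts cannot be told apart, and the source of the trend was not tested.

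The 6 dishes of IP replicates 1 to 3 gave no input library. Taken alone, those IP libraries gave 7 members higher and 5 lower (6.63% and 5.6% of all genes), and replicates 4 to 6 gave 8 and 9 (7.45% and 7.72%). Called in the 6 libraries of replicates 1 to 3 no longer were Glrx2 (-0.13, adjusted p 0.0615), Gpx4, Gstp1, Prdx2 and Txnrd2. In those of replicates 4 to 6, Prdx3 (-0.07, adjusted p 0.192), Prdx2 and Txnrd2 were not, while Sod2, Gpx7 and Gpx8 were called in addition.

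The second question was how the members divide between the RNA pulled down with tagged ribosomes and that of the cleared lysate. Over the 18 libraries, with treatment in the model, 34 of 42 members were called between IP and input, against 51% of all genes tested and 76.3% of those averaging 1 CPM or more. The members' share, 81.0%, is close to the last of these. Of them 19 were higher in IP (25.2% of all genes) and 15 lower (25.8% of all genes), and 23 did not overlap between the fractions (25% of all genes). With libraries scaled to total counts in place of TMM, 18 members were higher and 20 lower (20.8% and 30.2% of all genes), so that the balance turned, while the median of all genes moved by -0.05. With dish as a block in the 12 libraries that share dishes, 18 were higher and 17 lower (23.8% of all genes each way): Gpx4 (-0.05, adjusted p 0.0138) and Gpx8 (-0.08, adjusted p 0.000616) were added as lower, and the call of Hmox2 ended (0.03, adjusted p 0.438). With TMM the median over the members was 0.04, beside -0.03 over all genes, and 0.02 without input ethanol replicate 5, with the annotated strand alone or in control libraries alone. It lay slightly under 0 with total counts and in the 12 libraries that share dishes, blocked or not, so it gives no direction for the members. IP enriches for RNA of cells that make the tagged ribosome and for RNA on ribosomes, and these cannot be told apart here.

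Most enriched in IP was Gsta4, by 0.58 ± 0.0236 (adjusted p 6.32e-34), its lowest IP library at 64.1 CPM against a highest input of 50.4. Prdx6 was at 1323, 1327 and 1357 CPM in IP control and 1232, 1288 and 1318 in IP ethanol, and at 892, 909 and 909.7 in input control and 868, 911 and 898 in input ethanol. It was higher in IP by 0.54 ± 0.0178 (adjusted p 1.87e-39), without overlap. Sod2 was at 228, 245 and 263 CPM in IP control and 232, 258 and 271 in IP ethanol, and at 186, 189.5 and 189 in input control and 207, 185 and 207 in input ethanol. All IP libraries of Sod2 lay above all inputs (0.37 ± 0.0339, adjusted p 9.24e-09). Txnrd2 was higher in IP by 0.35 ± 0.0382 (adjusted p 7.44e-13), and of the regulators Keap1 by 0.29 ± 0.0217 (adjusted p 1.21e-19) and Nfe2l2 by 0.15 ± 0.0205 (adjusted p 3.31e-09). None of these 3 overlapped between fractions.

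Farthest the other way was Gsto1, an omega-class transferase that also reduces dehydroascorbate. It was at 53.6, 55.6 and 57.6 CPM in IP control and 51.6, 52.2 and 55.0 in IP ethanol, and at 95.0, 93.9 and 93.8 in input control and 97.9, 99.0 and 96.7 in input ethanol. The lowest input lay well above the highest IP library (-0.83 ± 0.0219, adjusted p 2.93e-45), and from input to IP the level fell by 43.6%. Mgst3, a microsomal transferase, was at 10.1, 10.999 and 11.6 CPM in IP control and 10.2, 10.9 and 12.1 in IP ethanol, and at 16.2, 15.0 and 14.1 in input control and 15.8, 15.5 and 16.0 in input ethanol (-0.49 ± 0.0391, adjusted p 1.59e-18), without overlap. The IP libraries of Prdx1 (-0.35 ± 0.0190, adjusted p 3.67e-27), Me1 (-0.28 ± 0.0215, adjusted p 3.53e-19) and Txn2 (-0.26 ± 0.0225, adjusted p 2.39e-16) likewise lay below all inputs. Within families the fractions split: Prdx2, Prdx5 and Prdx6 were higher in IP and Prdx1 and Prdx4 lower, and Txnrd1 and Txnrd2 were higher while the substrates of their products, Txn1 and Txn2, were lower. Of the microglial and fibroblast markers, 8 of 9 and 4 of 5 were also lower in IP, and their part in the lower members was not tested.

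**Figure D3:**
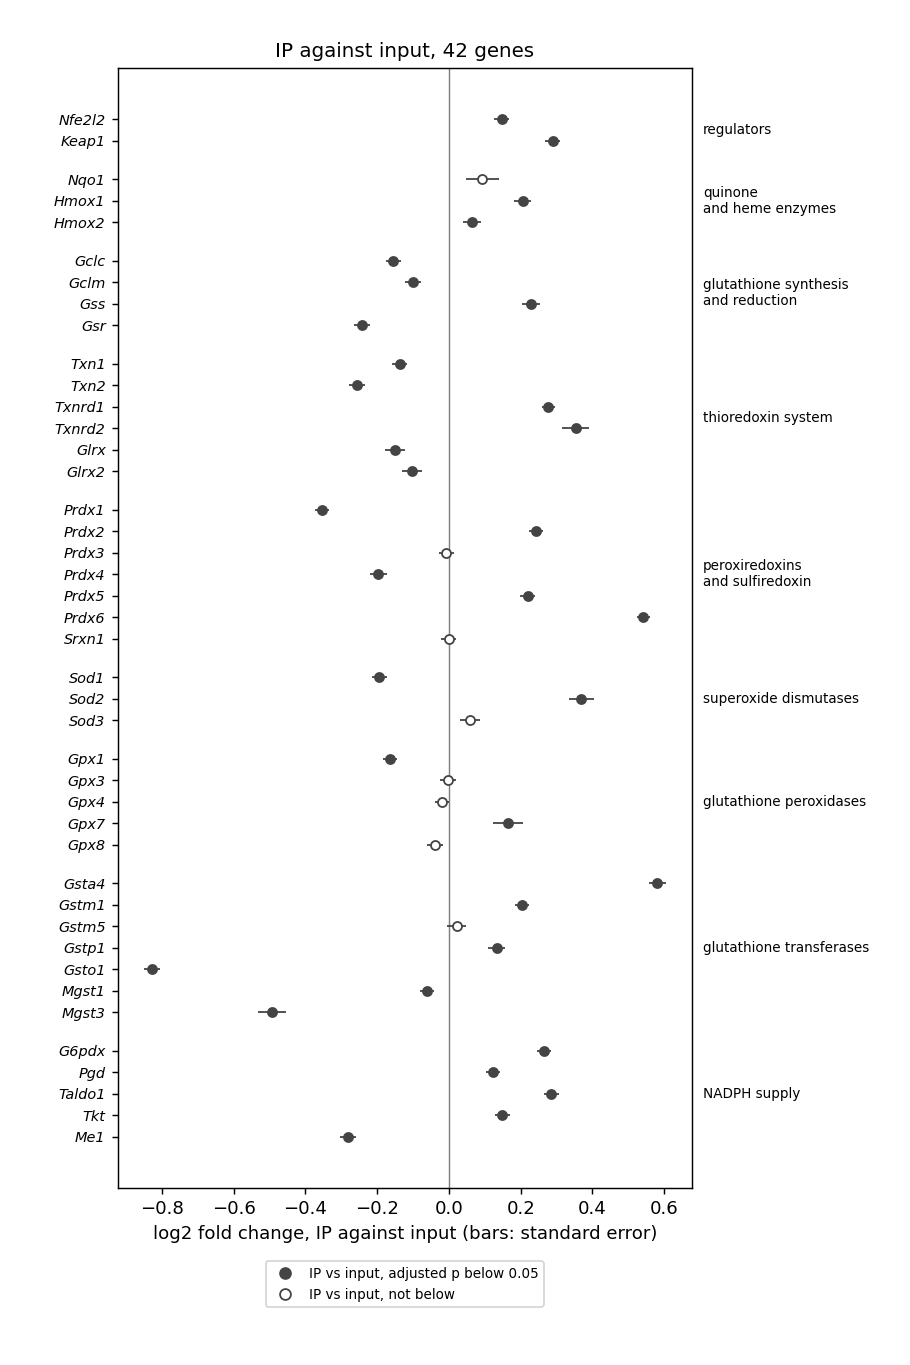
Log2 fold change of IP against input (x axis, bars are standard errors) over 18 libraries for the 42 genes grouped by role, filled where the adjusted p was under 0.05. Gsta4 (0.58) and Prdx6 (0.54) lie farthest toward IP, and Gsto1 (-0.83) and Mgst3 (-0.49) farthest toward input.

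Around the members, 124 further genes of the same pathways were looked up, of which 120 were tested; Gpx2, Gpx5, Gpx6 and Cyp2e1 had too few reads. With ethanol 27 of the 120 were higher and 19 lower in IP, together 38.3%, against 21.4% of all genes and 36.8% of those averaging 1 CPM or more. In input 23 were higher and 16 lower, together 32.5%, against 15% and 26.4%. By list, IP gave 10 higher and 5 lower of 25 other NRF2 pathway genes, 5 and 4 of 34 other glutathione genes, 6 and 6 of 20 for thiol and methionine repair, 3 and 0 of 17 for selenium, 0 and 3 of 11 for NADPH supply, and 3 and 1 of 13 oxidant sources. In input the same lists gave 8 and 6, 2 and 2, 5 and 5, 4 and 1, 1 and 2, and 3 and 0. Of all genes tested, 11.9% were called higher and 9.48% lower in IP, and 7.21% and 7.78% in input. Maff, a small MAF partner of NRF2, had the largest called fall in both fractions: IP went from 145.3, 152.8 and 158.0 CPM to 116, 120.3 and 124 and input from 135, 138 and 135 to 102, 112 and 109, without overlap (fold changes -0.34, adjusted p 1.45e-16, and -0.34, adjusted p 2.27e-38). Catalase (Cat) was higher, from 149.3, 153.5 and 156.7 CPM to 166.2, 170.5 and 172 in IP and from means of 138 to 147.1 in input, again without overlap in either fraction (fold changes 0.15, adjusted p 5.40e-07, and 0.08, adjusted p 0.00659). Its input call ended without input control replicate 6 (adjusted p 0.0662) or input ethanol replicate 4 (0.0534).

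Slc7a11, the cystine importer that feeds glutathione synthesis, rose by 0.30 ± 0.0350 in IP (adjusted p 8.37e-10) against 0.19 ± 0.0366 in input (adjusted p 4.95e-06), without overlap, beside Gclc and Gclm. Txnip, which encodes an inhibitor of thioredoxin, had inputs of 68.8, 72.5 and 73.2 CPM in control and 89.2, 90.7 and 90.5 in ethanol (fold change 0.33, adjusted p 7.63e-30) and a fold change of 0.37 in IP (adjusted p 7.59e-18), so it moved up where Txn1 and Txn2 moved down. The Txn1 calls, unlike those of Txn2, ended with the GC and length trend removed (adjusted p 0.274 in IP and 0.336 in input). Msra, a methionine sulfoxide reductase, fell from 9.65, 11.1 and 12.1 CPM to 8.29, 9.05 and 9.22 in IP (-0.30, adjusted p 2.99e-06) and from 10.7, 11.4 and 11.5 to 9.74, 9.64 and 9.53 in input (-0.22, adjusted p 0.00841), where the call ended without input control replicate 5 (adjusted p 0.0528). Ggt5, Gsta3 and Maob had the largest called rises of these genes in IP, at 0.39, 0.39 and 0.38 (adjusted p 0.00171, 0.000150 and 4.83e-05), all at low levels. Their IP libraries were at 1.45, 1.98 and 2.30 CPM in control and 2.01, 2.54 and 2.93 in ethanol for Ggt5, 2.24, 2.54 and 2.89 and 3.06, 3.22 and 3.75 for Gsta3, and 3.41, 3.79 and 4.19 and 4.01, 5.12 and 5.68 for Maob. For Gsta3 the groups did not overlap, and for Ggt5 and Maob they did. Xdh, xanthine dehydrogenase, fell in IP from 6.39, 7.21 and 8.59 CPM to 5.70, 6.04 and 6.90, overlapping (-0.25, adjusted p 0.00238).

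In input, Ggt5, a relative of the gamma-glutamyltransferase that opens glutathione breakdown, was at 1.19, 1.81 and 1.77 CPM in control and 2.20, 2.37 and 2.29 in ethanol (0.52, adjusted p 0.00415), and not called without input control replicate 4 (0.35, adjusted p 0.147). Maob, a mitochondrial monoamine oxidase that releases hydrogen peroxide, was at 3.21, 2.83 and 2.67 CPM in control and 3.37, 3.37 and 4.17 in ethanol (0.32, adjusted p 0.0395), and not called without input control replicate 5 or 6 (adjusted p 0.125 and 0.206) or input ethanol replicate 6 (0.362). Gstm6, another transferase of the mu class, was at 6.35, 5.76 and 5.91 CPM in control and 4.67, 5.02 and 5.40 in ethanol (-0.26, adjusted p 0.0256). Its call ended without input control replicate 4 or 6 (adjusted p 0.152 and 0.051) or input ethanol replicate 4 or 5 (0.167 and 0.062), and with the GC and length trend removed (0.0646). None of the 3 overlapped between control and ethanol inputs, and all 3 stood at low levels.

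The promoters of the members were searched on both strands for TGACNNNGC, the core of the antioxidant response element that NRF2 binds with a small MAF partner. RefSeq promoter sequences (build GRCm38.p6, ending 50 bases after the start of transcription) were given for 36 of the 42 members and not for Hmox1, Gclc, Sod3, Prdx6, Gsta4 and Gsr. The motif was in 11 of the 51 promoters of members, or 21.6%, and in 12.4% of all 32851 promoters given. By gene, 11 of 36 members held it, 30.6%, beside 14.0% of all 27025 genes. It was in the promoters of Gclm, Srxn1, Mgst1 and G6pdx, which are all the members called higher in IP for which one was given, in none of the 10 called lower, and in 7 of 22 not called. Of these 4, however, only the motif of Gclm lies upstream of the start both in RefSeq and in the gene annotation: that of Srxn1 follows the start, and those of Mgst1 and G6pdx lie inside the annotated gene. Of those called higher in input 8 of 9 held it, of those called lower 0 of 5, and of the rest 3 of 22. Of the 8, only the motifs of Gclm, Nfe2l2, Prdx1 and Sod1 lie upstream of the start both in RefSeq and in the gene annotation. That of Me1 spans the RefSeq start. The list was drawn up to include the NRF2 pathway, so the shares of its members are no test of that pathway. All the counts are of letters in a window and show no binding. Printed here are examples of such a window in members called higher with ethanol in input, of which only Gclm was also called in IP with the main settings. They are the bases around the motif for Gclm (chr3:122245383-122245471, plus strand), Prdx1 (chr4:116685426-116685514, plus strand) and Nfe2l2 (chr2:75704855-75704913, minus strand). Each runs 5′ to 3′ on the strand of the gene and upstream of its start both in RefSeq and in the gene annotation. Capitals mark the motif, which in Gclm and Prdx1 lies on the opposite strand and so reads GCNNNGTCA.
Gclm: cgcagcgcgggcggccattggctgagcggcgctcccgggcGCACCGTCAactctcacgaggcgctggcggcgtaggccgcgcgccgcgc
Prdx1: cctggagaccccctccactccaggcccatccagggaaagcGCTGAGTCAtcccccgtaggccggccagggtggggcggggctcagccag
Nfe2l2: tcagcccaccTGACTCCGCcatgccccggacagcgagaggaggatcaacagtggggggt

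Members also share position in places. Gclc (chr9:77754535-77794485) and Gsta4 (chr9:78182774-78209349, build GRCm38) lie 388 kb apart on chromosome 9, and both were higher with ethanol in both fractions, although Gclc was lower and Gsta4 higher in IP than in input. Gstm1 and Gstm5 lie 114 kb apart on chromosome 3, and neither was called with ethanol with all libraries and the main settings, though Gstm5 was called higher in both fractions with the GC and length trend removed. Members with close relatives or pseudogenes, such as the Gstm genes, Gstp1, Txn1, Prdx1 and Gpx4, may lose read pairs that fit more than 1 place, and their levels are uncertain to that extent.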

How the data were processed

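The authors trimmed read pairs with Trimmomatic, aligned them with STAR to GRCm38 (mm10) and used SAMtools. The deposited values are STAR read pair counts per gene, and the table equals the counts of the 18 deposited library files for every gene. From the counts, genes with at least 10 pairs in total were tested with the quasi-likelihood test of edgeR 4.0.16 (TMM scaling, robust) in R 4.3.3, with Benjamini-Hochberg adjustment over all 24495 genes. The comparisons were ethanol in IP, ethanol in input, IP against input with treatment in the model, and the fraction by treatment interaction. Groups came from the labels, and no library was left out. DESeq2 1.42.0, other scalings and filters, annotated-strand counts, replicate blocks, a spline trend on GC content and length (4 degrees of freedom, genes averaging 1 CPM or more) and leaving out each library were alternatives, and the fits were tested on simulated data.

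Input replicates come from the dishes of IP replicates 4 to 6, so dish is a true block there. Control and ethanol libraries of the same number correlated at -0.10 to 0.22 in IP and 0.02 to 0.07 in input after centring on group means, and 2 of 6 and 2 of 3 were most like their own number, so they were not treated as pairs. For IP and input of the same dish the correlation was 0.02 to 0.15. No libraries were near copies, the lowest chi-square per degree of freedom between replicates being 4.06. On average 3.60% of pairs mapped to several places and were not counted, so genes with near copies are uncertain. With the strands counted separately, 4.35% of pairs lay on the opposite strand, with 41.3% for Txnrd2 and 12.8% for Hmox2. The strand counts together exceed the unstranded counts tested, so these are not shares of the tested counts. A marker symbol, Itgam, had 2 identifiers, of which the one with reads was used.

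The members and lists were chosen with earlier results of these data known. Named, with the levels of the comparison concerned, were Nfe2l2 and Keap1, the 6 largest called rises and falls with ethanol in each fraction, the 5 largest called differences each way between IP and input, and, in the other pathway lists, the 3 largest called changes each way with ethanol and Cat. Other genes were named after their values were seen. The group of Nqo1, Hmox1 and Hmox2, planned under the name of NRF2 targets, was renamed, as Hmox2 is not known as one. Promoter sequences are from RefSeq. Protein sequences were not used here.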

Additional observations from a re-analysis of the deposited data

Results flagged for a closer look

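In each IP group of 6 libraries, a member's highest or lowest library was marked when its gap to the next took up more of the group's range than the 95% limit of Dixon's test allows. Chance marks about 1 in 20 groups, which is 4.2 of the 84 groups tested, and 4 were marked. In IP ethanol, replicate 2 was low for Glrx, at 28.6 CPM against 31.5 for the next library and 32.9 for the highest. The same library was high for Gstm1, at 1677 CPM against 1560.1 for the next and 1499 for the lowest. In IP control, replicate 3 was high for Prdx6, at 1357 CPM against 1333 and 1323, and for Gpx8, at 144 CPM against 137 and 134. With all libraries and the main settings none of these 4 genes was called with ethanol in IP. Prdx6 was called lower with edgeR's own filter on low counts (adjusted p 0.0372), in DESeq2 (0.0158) and without IP ethanol replicate 3 (0.0401). Gpx8 was called lower in replicates 4 to 6 alone (-0.11, adjusted p 0.00939), a setting without IP control replicate 3.

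Hmox1 stood out by the test of the difference between fractions. With dish as a block and the GC and length trend removed, its ethanol change was 0.11 larger in IP than in input (adjusted p 0.00331). With dish as a block alone the difference was again 0.11 but the adjusted p was 0.101, both over the 12 libraries of dishes with both fractions. Over all 18 libraries with neither step it was 0.06 (adjusted p 0.908). The dish block alone called 102 of 24495 genes, and with the trend removed as well 53.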

How the results depend on the processing

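Most changes of the named genes kept their direction and their side of the threshold. Counting each named gene once under each alternative other than leaving out a library, 504 did so, 14 lost a call, 1 gained one and 2 changed sign. Counted over libraries left out in turn, 541 did so, 28 lost a call and 1 changed sign. These counts leave out members not named by the rule. Over all 42 members, the alternatives other than leaving out a library ended calls with ethanol 16 times in IP and 8 in input, and added them 18 and 15 times. Leaving out a library ended calls 19 and 20 times and added them 5 and 3 times.

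With the GC and length trend removed, 11 members were called higher and 6 lower with ethanol in IP (10.7% and 11.2% of all genes); with the replicate block as well, 12 and 6 (11.5% and 12.3%). IP replicates 1 to 3 alone gave 5 lower (5.6% of all genes), with fewer libraries. The dish block with the trend removed called 1 member, Hmox1, and 53 genes in all in the difference between fractions. Keap1, not called with ethanol, changed sign in IP, from 0.04 to -0.00615 with the trend removed and -0.00606 with the replicate block too, and ranged in input from -0.033 to 0.00774 with a library left out, 0.00774 being without input control replicate 5. In each case the cause was not tested.

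Leaving out 1 library gave 7 to 8 members higher and 7 to 12 lower in IP, 8 to 12 higher and 4 to 5 lower in input, 18 to 20 higher and 15 to 16 lower between IP and input, and 0 to 0 for the difference. An alternative chosen after seeing the data was the 12 libraries of dishes with both fractions and no replicate block. It gave 18 members higher and 17 lower in IP than in input (23.8% and 24.2% of all genes). These member counts were the same as with dish as a block.

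With 3 libraries a group in input, calls near the threshold often ended when 1 library was left out. Some fold changes moved little then, as for Txn1 (-0.07, and -0.06 to -0.08 with a library left out where the call ended). Others moved more, as for Sod2 (0.08, and 0.05 without input ethanol replicate 6). The lowest count of a member in a library was 508, for Nqo1 in input. There Nqo1 changed by 0.11 with a standard error of 0.0816 and was not called, while Gclm, also at 0.11, had 0.0280 and was. The part of shifts in cell composition in the changes of the members was not tested.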
